A study of Mus musculus with 3 samples.

Results

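The cells described here were picked from single-cell RNA counts of mouse duodenal immune cells by a rule on unique molecular identifiers (UMIs, each counting 1 captured RNA molecule). A cell belonged if it held 500 UMIs and 200 genes or more, with mitochondrial UMIs no higher than 15%, no UMI of Cd3d, Cd3e, Cd79a or Csf1r, at least 2 UMIs of Gzma, Gzmb and Gzmc together, and at least 2 UMIs of Fcer1g, Tyrobp and Syk together. Of 33284 cells that passed the filter on UMIs, genes and mitochondrial UMIs, 1064 met the rule, or 3.20% (exact binomial 95% interval 3.01 to 3.39%). The rule was meant to collect cytotoxic innate lymphocytes without CD3, and the data bore this out for only some of the cells. By their other genes, 751 cells (70.6%) formed a class rich in Cd3g, 45 cells (4.23%) a class rich in Ncr1, and 268 cells (25.2%) carried the genes of other lineages.

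The study injected saline or preformed fibrils (PFF) of mouse alpha-synuclein into the muscle of the duodenal wall of C57B6/J mice, male by the series title, and took immune cells at day 30. Cells were freed with Accumax, sorted for CD45 in one portion and bound to CD11b beads in the other, and pooled. All 3 libraries therefore share the injection, the digestion and the enrichment. Saline 1 and PFF 1 are labelled batch 1 and saline 2 is labelled batch 2, and the number of mice per library is not given in the sources used here.

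Each saline file joined 4 wells, and 3 of them held the same barcodes with identical counts in both files. These shared saline wells were counted once and are given on their own, so the independent libraries were the remaining well of saline 1, the remaining well of saline 2, and PFF 1. They held 61, 220 and 373 of the cells, and the shared wells held 410. The members had a median of 3359 UMIs in saline 1, 10985 in saline 2, 9866 in PFF 1 and 5482.5 in the shared wells. Saline 2 and PFF 1 had 119 bare barcodes in common, against 1 to 42 for the other pairs of wells, and 18 cells of the rule sat on these barcodes, 16 in saline 2 and 2 in PFF 1. Nothing in the labels says that wells came from separate animals, so every p-value below measures only the spread between these libraries.

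CD3 is the signalling complex of the T cell receptor. Its delta, epsilon and gamma chains come from neighbouring genes, and its zeta chain, encoded by Cd247, also serves natural killer receptors. Natural killer cells and group 1 innate lymphoid cells (ILC1) kill or secrete cytokines without a T cell receptor, and signal through ITAM adapters such as FcRgamma (Fcer1g) and DAP12 (Tyrobp), which recruit the kinase Syk or Zap70. The intestinal epithelium also holds innate intraepithelial lymphocytes, which have no surface T cell receptor but can carry CD3gamma inside the cell, beside many T cells that express CD8alpha and the integrin CD103.

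The rule rested on 2 genes of the CD3 cluster, so their start sites are shown first. On chromosome 9 (GRCm38) the annotation places Cd3g at chr9:44969572-44980431 on the minus strand, Cd3d at chr9:44981786-44987339 on the plus strand and Cd3e at chr9:44998740-45009627 on the minus strand. The starts of Cd3g and Cd3d lie 1355 bases apart and face away from each other, and those of Cd3d and Cd3e lie 27841 bases apart. The 250 bases before each RefSeq start (GRCm38.p6), read 5' to 3' on the gene's own strand, are chr9:44980432-44980681 for Cd3g, chr9:44981536-44981785 for Cd3d and chr9:45009612-45009861 for Cd3e. Capitals mark CACCTG or its reverse CAGGTG, an E-box, and CTTCCT or its reverse AGGAAG, the core of an ETS site. The first motif was found in 17.22% and the second in 29.48% of 32851 promoter windows of this length, and a match is a description of the letters only.
Cd3g: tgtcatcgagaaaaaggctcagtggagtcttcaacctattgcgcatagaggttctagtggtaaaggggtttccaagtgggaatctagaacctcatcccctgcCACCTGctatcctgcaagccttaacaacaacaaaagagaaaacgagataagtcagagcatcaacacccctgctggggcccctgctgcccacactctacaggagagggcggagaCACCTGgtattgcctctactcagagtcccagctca
Cd3d: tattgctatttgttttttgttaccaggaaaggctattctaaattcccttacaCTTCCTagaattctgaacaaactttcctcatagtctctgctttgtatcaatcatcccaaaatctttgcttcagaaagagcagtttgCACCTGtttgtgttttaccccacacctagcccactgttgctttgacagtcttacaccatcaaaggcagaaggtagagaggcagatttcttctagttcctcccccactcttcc
Cd3e: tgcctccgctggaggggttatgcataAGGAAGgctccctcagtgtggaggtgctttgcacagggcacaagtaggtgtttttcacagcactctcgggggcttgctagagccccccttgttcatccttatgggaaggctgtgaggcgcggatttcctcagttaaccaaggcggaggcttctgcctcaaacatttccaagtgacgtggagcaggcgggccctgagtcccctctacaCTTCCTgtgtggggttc
The window of Cd3g held 2 E-boxes, that of Cd3d 1 E-box and 1 ETS core, and that of Cd3e 2 ETS cores.

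The 3 classes came from clustering the 1064 cells on all their genes, so differences between the classes are a description and carry no test. Clusters in which most cells held Cd3g and Itgae UMIs formed the Cd3g-rich class. The cluster in which most cells held an Ncr1 UMI formed the Ncr1-rich class. Frequent Cd3g, Itgae and Ncr1 in these classes thus follow from the choice. The Cd3g-rich class joined 4 clusters and held 49.7% of all UMIs of the members. The cells of other lineages held 47.7% of the UMIs. Among them were 91 dendritic-like cells led by Siglech, 75 dendritic-like cells led by H2-Ab1 and other MHC class II genes, 39 enterocyte-like cells led by Fabp1 with a median of 52291 UMIs, 30 B or plasma-like cells, 18 macrophage-like cells led by C1qa, and 15 unnamed cells led by Zg16 and Muc2, which are goblet cell mucus genes. Cells of another lineage also met parts of the rule: of 979 B cells (at least 2 UMIs of Cd79a, no CD3), 45.3% held at least 2 granzyme UMIs and 68.4% at least 2 adapter UMIs. The granzyme share of B cells differed between libraries, with 1 of 41 B cells (2.44%) in saline 1, 32.2% of 90 in saline 2 and 43.2% of 491 in PFF 1. In shared wells 1 and 2 it was 0 of 13 and 0 of 23, and in shared well 3 it was 62.6% of 321. Its part in the shares of members was not tested. Syk is a B cell gene itself and stood at 342, 344 and 356 CPM (counts per 1000000 UMIs of the summed cells) in the B cells of saline 1, saline 2 and PFF 1.

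**Figure D1:**
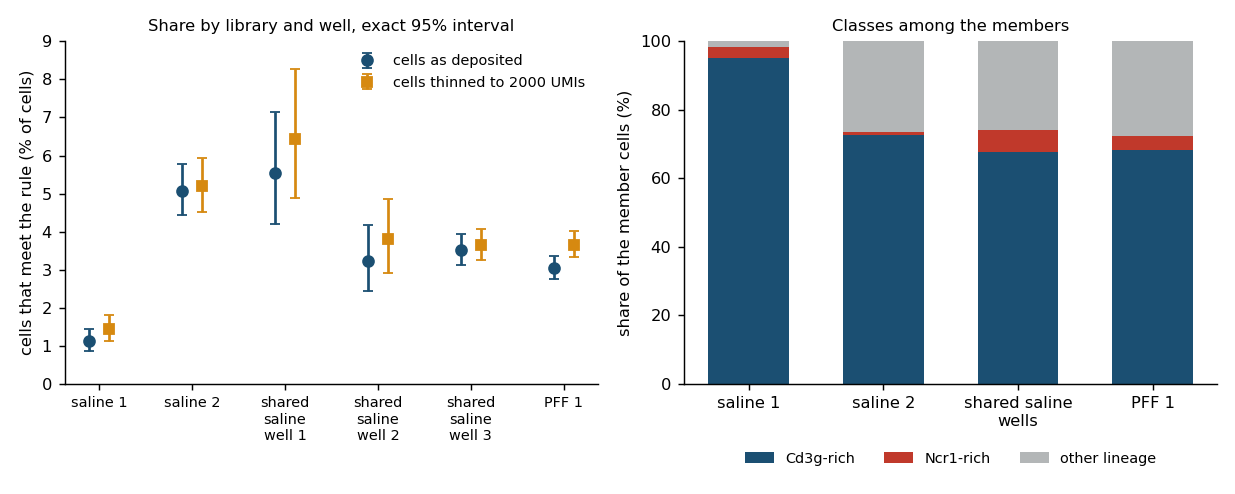
Left, cells that met the rule as a percent of all filtered cells, by library and well, with exact binomial 95% intervals, for cells as deposited (circles) and thinned to 2000 UMIs (squares). Right, the percent of the members in each class, where the Cd3g-rich class makes up 95.1% in saline 1 and between 67.8% and 72.7% in the other libraries.

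With all other parts of the rule met, 1064 cells had 0 UMIs of Cd3d and Cd3e, 345 had 1, 255 had 2 and 293 had 3. Of cells without these CD3 UMIs that met the adapter part, 196 had 1 granzyme UMI and 119 had 2, and of those that met the granzyme part, 170 had 1 adapter UMI and 90 had 2. At the level of Cd3d and Cd3e in the CD3-bearing cells described next, a Cd3g-rich member of its depth would have held a median of 9.40 UMIs of both genes in saline 1, 26.6 in saline 2, 20.4 in PFF 1 and 11.98 in the shared wells. Of the 751 Cd3g-rich members, 40 would have held under 3.

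The comparison cells passed the same granzyme and adapter parts of the rule but had at least 2 UMIs of Cd3d and Cd3e. There were 22257 of them, with 3917 in saline 1, 2953 in saline 2, 8790 in PFF 1 and 6597 in the shared wells, and their median depths of 3338, 10701, 9553.5 and 5790 UMIs were close to those of the members. For shares of cells with a UMI, cells were thinned to 2000 UMIs, which left 955 members, 685 of them Cd3g-rich, and 21799 comparison cells.

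The Cd3g-rich members lacked Cd3d and Cd3e by rule. The remaining gene of that locus, Cd3g, served to choose the class, so its level is given as a description. Cd3g, which encodes the gamma chain, stood at 1783 CPM in saline 1, 2761 in saline 2, 2022 in PFF 1 and 2212 in the shared wells, against 1770, 2322, 1797 and 1779 CPM in the comparison cells. Each Cd3g-rich value lay above its comparison value, by little in saline 1. At equal depth 84.5% of the Cd3g-rich members and 94.8% of the comparison cells held a Cd3g UMI, against 2.82% of B cells.

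The T cell receptor constant genes split into some that were kept and some that were low. Trbc1, a beta chain constant gene, stood at 446, 556 and 514 CPM in the Cd3g-rich members of saline 1, saline 2 and PFF 1, against 519, 533 and 493 CPM in the comparison cells. Tcrg-C4, a gamma chain constant gene, stood at 391, 583 and 498 CPM against 446, 489 and 420 CPM. For both genes saline 1 lay below and the other libraries above the comparison cells. Tcrg-C1, another gamma constant gene, was at 9.91, 15.4 and 16.2 CPM in the Cd3g-rich members and at 781, 777 and 649 CPM in the comparison cells. At equal depth 1.75% of the Cd3g-rich members held a Tcrg-C1 UMI, near the 1.67% of B cells, against 60.3% of the comparison cells. Tcrg-C2 was at 39.6, 21.8 and 18.7 CPM against 485, 474 and 447 CPM. Tcrg-C1 with Tcrg-C2, and Trbc1 with Trbc2, are near-identical copies, and whether reads were split or dropped between them was not tested.

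Trac, the alpha chain constant gene, stood at 84.2, 101 and 110 CPM in the Cd3g-rich members, against 404, 399 and 386 CPM. Trdc, its delta counterpart, stood at 129, 82.0 and 104 CPM against 689, 696 and 595 CPM. Trbc2 was at 109, 253 and 253 CPM against 735, 807 and 669 CPM. At equal depth 14.0%, 15.04% and 28.8% of the Cd3g-rich members held a UMI of Trac, Trdc and Trbc2, against 1.25%, 1.36% and 1.88% of B cells. Cd247, the zeta chain, was at 104, 16.02 and 38.2 CPM against 383, 330 and 390 CPM.

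**Figure D2:**
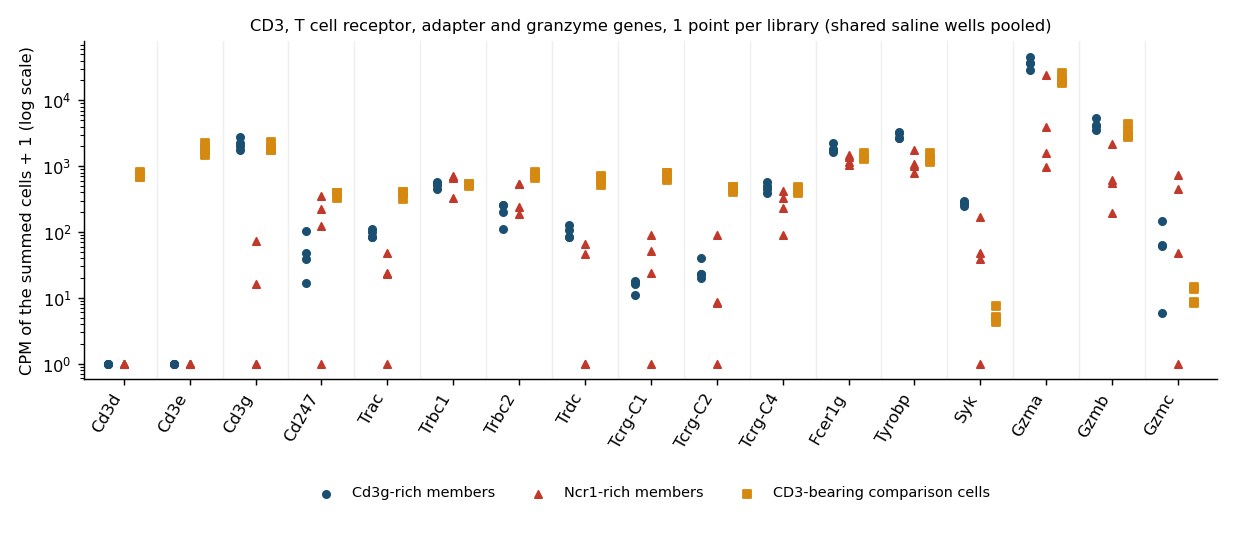
Level of each CD3, T cell receptor, adapter and granzyme gene as CPM of the summed cells plus 1 on a log axis, with 1 point for each of saline 1, saline 2, the pooled shared saline wells and PFF 1. In Cd3g-rich members Cd3g, Trbc1 and Tcrg-C4 sit beside the CD3-bearing comparison cells, while Cd247, Trac, Trbc2, Trdc, Tcrg-C1 and Tcrg-C2 sit below them.

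The granzymes and adapters chose the members, and their levels are given as a description. Gzma was in every cell of the Cd3g-rich clusters, at 35189 to 47401 CPM. In each of the other clusters 96.7% to 100% of the cells held it. Gzmb, a granule protease, stood at 4161, 5411 and 3479 CPM in the Cd3g-rich members of saline 1, saline 2 and PFF 1 and at 3403, 4411 and 2890 CPM in the comparison cells. Fcer1g stood at 1645, 2228 and 1789 CPM against 1307, 1584 and 1268 CPM. Tyrobp stood at 2631, 3348 and 3193 CPM against 1228, 1557 and 1138 CPM. Syk showed the widest gap of these genes, at 287, 247 and 294 CPM against 3.33, 4.05 and 3.97 CPM. The comparison cells thus met the adapter part mostly through Fcer1g and Tyrobp, and 1.32% of them held a Syk UMI before thinning, against 69.0% of the Cd3g-rich members.

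Of the natural killer genes, the Cd3g-rich members held Klrb1c, Itgam and Prf1 above the comparison cells, with little Ncr1, Klrk1 or Eomes. Klrb1c, which encodes the NK1.1 antigen, stood at 134, 213 and 198 CPM in saline 1, saline 2 and PFF 1, against 23.6, 38.5 and 30.5 CPM in the comparison cells. Itgam, the CD11b chain on which part of the cells was enriched, stood at 159, 122 and 147 CPM against 17.2, 20.5 and 17.4 CPM. Prf1, the pore-forming granule protein, stood at 228, 166 and 158 CPM against 79.5, 92.4 and 84.5 CPM. Summed over the whole natural killer list, the Cd3g-rich members stood at 3928, 4362 and 4170 CPM, against 3975, 3976 and 3848 CPM in the comparison cells. Ncr1, the NKp46 receptor, stood at 9.91, 21.8 and 12.5 CPM, against 0.346, 0.205 and 0.314 CPM in the comparison cells and 912 CPM in the Ncr1-rich members of PFF 1. It had 80 UMIs in 25 of the 751 Cd3g-rich members. Klrk1, the NKG2D receptor, stood at 0, 12.8 and 7.89 CPM, against 1.18, 1.03 and 1.93 CPM. Eomes, a natural killer transcription factor, had 1 UMI in all 751 Cd3g-rich members.

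Some genes of innate intraepithelial lymphocytes stood near or above their level in the CD3-bearing cells, and others stood below it. Summed over that list, the Cd3g-rich members stood at 12603, 14323 and 12998 CPM in saline 1, saline 2 and PFF 1. The comparison cells stood at 14251, 14351 and 13522 CPM. In the shared wells the sums were 12997 and 12900 CPM. Itgae, the CD103 integrin chain, also served to choose the class. It stood at 1417, 1357 and 1426 CPM in the Cd3g-rich members, against 1482, 1321 and 1415 CPM. Cd7, a surface protein of T and innate lymphocytes, stood at 3017, 3866 and 3391 CPM against 2833, 2946 and 2585 CPM. Il2rb, the beta chain of the IL-2 and IL-15 receptors, stood at 713, 702 and 668 CPM against 729, 716 and 623 CPM. Cd8a was lower, at 401, 478 and 445 CPM against 1432, 1426 and 1300 CPM, and Cd101, an inhibitory receptor of intraepithelial T cells, stood at 29.7, 5.13 and 8.31 CPM against 154, 147 and 173 CPM. At equal depth 35.2% of the Cd3g-rich members held a Cd8a UMI, against 88.3% of the comparison cells and 3.87% of B cells.

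Among ILC1 genes, Itga1, the CD49a integrin chain, stood at 1308, 1171 and 1274 CPM in the Cd3g-rich members, against 1417, 1160 and 1314 CPM. Tnfsf10, the death ligand TRAIL, stood at 282, 299 and 324 CPM against 345, 332 and 360 CPM. Il12rb2, a chain of the IL-12 receptor, stood higher, at 441, 341 and 277 CPM against 176, 157 and 170 CPM. Ikzf2, the transcription factor Helios, stood at 590, 410 and 502 CPM against 1939, 1401 and 1840 CPM. Cxcr6, a chemokine receptor, stood at 44.6, 85.9 and 53.2 CPM against 124, 155 and 122 CPM. Zfp683, the factor Hobit, had no UMI in any of the 1064 members.

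**Figure D3:**
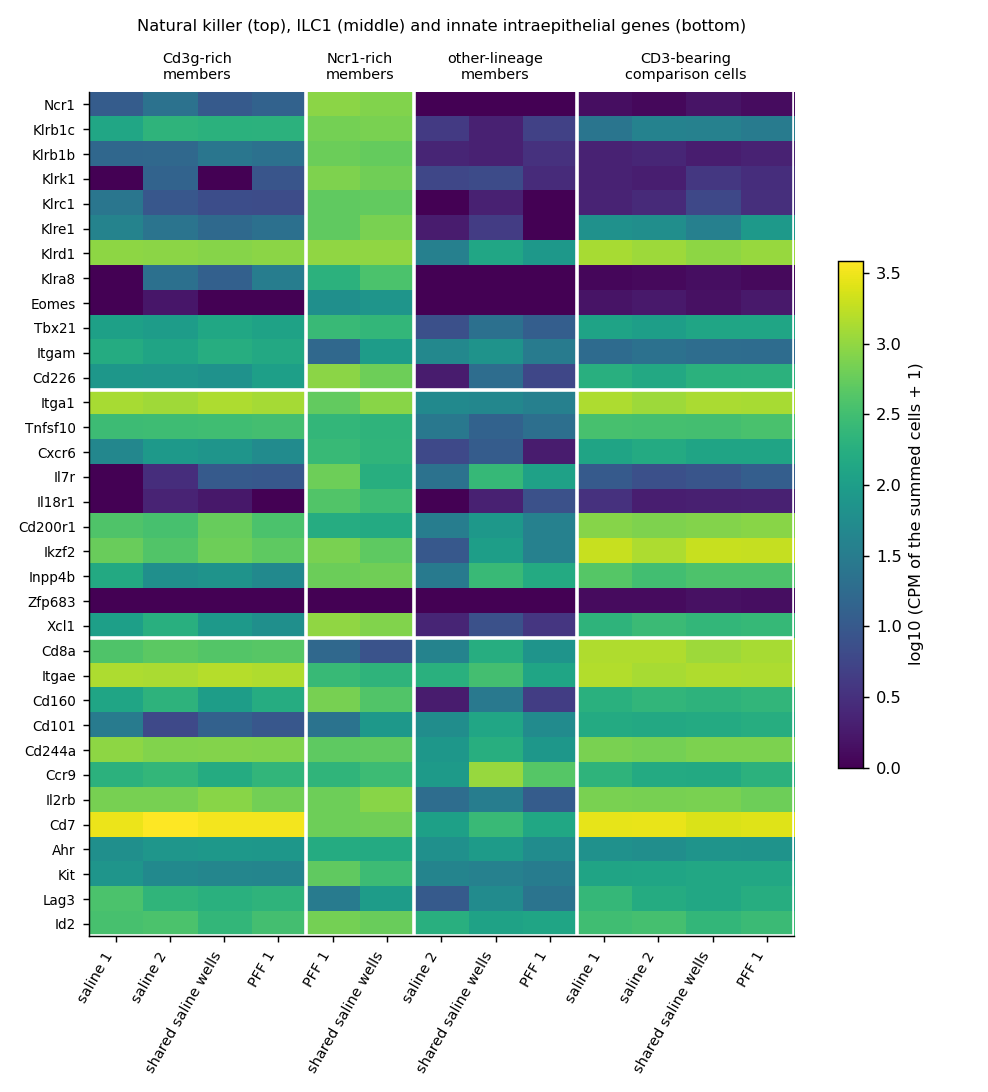
Level of natural killer, ILC1 and innate intraepithelial genes as log10 of CPM plus 1, by class and library; the columns of Ncr1-rich and other-lineage cells are limited to the libraries that hold enough of them. Itga1, Itgae and Cd7 are bright in Cd3g-rich members and comparison cells, and Ncr1 and Klrk1 are brightest in Ncr1-rich members.

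The Ncr1-rich class was small, with 2 cells in saline 1, 2 in saline 2, 15 in PFF 1 and 26 in the shared wells, all of the latter in shared well 3. Its cells held the genes that mark natural killer cells and ILC1. Ncr1, on which the class was chosen, stood at 912 CPM in PFF 1 and 802 in the shared wells. Klrb1c stood at 678 and 721 CPM, and Klrk1 at 784 and 634 CPM. Xcl1, a chemokine that attracts dendritic cells, stood at 980 and 802 CPM, and Il18r1, an IL-18 receptor chain, at 407 and 291 CPM. Over members of all classes, the top cell held 68 of 282 Xcl1 UMIs in PFF 1 and 81 of 243 in the shared wells. Few cells may thus carry the Xcl1 level. The class as a whole carried markers of both types: Eomes stood at 60.3 and 72.9 CPM, Itga1 at 535 and 896 CPM, and Il7r, the IL-7 receptor chain, at 633 and 175 CPM. Over all wells 22.2% of its cells held an Eomes UMI, 37.8% an Il7r UMI and 93.3% an Itga1 UMI. Whether the same cells held Eomes and Il7r was not tested. All 5 markers listed for natural killer cells, and 5 of those for ILC1 (all but Zfp683), were in at least 10% of these cells. Ncr1 and Klrb1c stand in both lists, and the class was given neither name.

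The Ncr1-rich cells differed from the Cd3g-rich cells in what they shared with T cells. Cd3g stood at 15.1 CPM in PFF 1 and 72.9 in the shared wells, and at equal depth 4.44% of Ncr1-rich cells held a Cd3g UMI. Cd8a stood at 15.1 and 7.29 CPM and Itgae at 264 and 211 CPM. Trbc1 was as high as in the other class, at 686 and 663 CPM, and 75.6% of the cells held a Trbc1 UMI at equal depth, against 1.67% of B cells. Tcrg-C4 stood at 332 and 233 CPM. Gzmb, a gene of the rule, stood at 196 and 561 CPM. Gzmc, also of the rule, had 98 UMIs in 2 of 15 cells of PFF 1 and 61 UMIs in 6 of 26 cells of the shared wells, so few cells carried its level.

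Within the Cd3g-rich class the clusters differed in Cd8a. It stood at 1056 CPM in a cluster of 217 cells, at 436 CPM in another of 217 cells, at 65.2 CPM in one of 216 cells, and at 117 CPM in one of 101 cells. Itgae ranged only from 1352 to 1704 CPM and Cd3g from 1712 to 3235 CPM over the same clusters. The cluster of 101 cells had 86 cells from shared well 3, 8 from PFF 1, 5 and 2 from the other shared wells, and 0 from saline 1 and saline 2, and Itga1 stood highest in it, at 1587 CPM. Its leading genes were the antibody genes Igha and Igkc, and Igkc stood at 344 CPM with a UMI in 82.2% of its cells, against 18.4 to 97.2 CPM in the other Cd3g-rich clusters. The part of antibody RNA in setting this cluster apart was not tested. Mki67, a proliferation gene, stood at 168 CPM in the cluster with the highest Cd8a and at 5.10 to 10.7 CPM in the others. Few cells carried it: 9.22% of that cluster held an Mki67 UMI, against 2.30% to 5.94% in the others. Detection of Cd8a and Itgae overlapped: at equal depth 96.7% of Cd3g-rich members with a Cd8a UMI and 89.0% of those without one held an Itgae UMI.

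By well, Cd3g in the Cd3g-rich members ran from 1783 CPM in saline 1 to 3027 in shared well 2, with 1891 in shared well 3, 2022 in PFF 1, 2761 in saline 2 and 2944 in shared well 1. Klrb1c ran from 134 CPM in saline 1 to 235 in shared well 1, with PFF 1 at 198. Cd8a ran from 362 CPM in shared well 3 to 651 in shared well 2, with PFF 1 at 445. Syk ran from 217 CPM in shared well 2 to 294 in PFF 1, with saline 1 at 287. For Cd3g, Klrb1c and Cd8a PFF 1 lay inside the range of the saline wells, and for Syk it lay just over saline 1, the highest saline well. One cell of the Cd3g-rich class in saline 1 held all 1419 Mcpt1 UMIs of that library's members, and with it the mast cell list summed to 10364 CPM there, against 57.7 in saline 2 and 88.5 in PFF 1.

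Members and comparison cells of the 3 libraries were then compared over all genes outside the 10 of the rule, with the library as a block. Of 13153 genes tested with edgeR's quasi-likelihood test, 2640 passed a Benjamini-Hochberg adjusted p under 0.05, which is 20.1%, with 1862 (14.2%) higher and 778 (5.92%) lower in the members. The rule itself separated these cells, so genes that go with CD3 had to differ, and nothing is read from the count. Of the higher genes, 1775 (95.3%) had a higher CPM in the other-lineage members than in the Cd3g-rich ones. Among them all, 380 (20.4%) lay above the comparison cells in the Cd3g-rich members of all 3 libraries. Of the lower genes, 667 (85.7%) also lay below the comparison cells in the Cd3g-rich members of all 3 libraries. The same shares over all genes tested were not computed, so these shares are a description of the called genes. The count was 1464 with the Cd3g-rich members alone and fell to 1195 without saline 2 and 1459 without PFF 1, while it was 5844 without saline 1.

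The median log2 difference over all genes was -0.02. Of 23 natural killer genes tested, 11 were higher and 6 lower, with a median of 0.96, where 14.2% of all genes were higher and 5.92% lower. The summed list went another way in 2 libraries. It stood at 4276, 2034 and 2747 CPM in the members of saline 1, saline 2 and PFF 1, against 3975, 3976 and 3848 CPM in the comparison cells. Ncr1 rose by 6.73 ± 0.36 (log2 difference ± SE, adjusted p = 0.000869), Klrk1 by 3.98 ± 0.37 (adjusted p = 0.00229) and Klrb1c by 2.00 ± 0.24 (adjusted p = 0.00308). In the members without a Cd3g or T cell receptor UMI, 4, 36 and 58 cells in saline 1, saline 2 and PFF 1, the fitted difference of Klrb1c turned to -12.74, which is a direction and no measure of size. The 45 Ncr1-rich cells held 267 Ncr1 UMIs and 212 Klrk1 UMIs, against 80 and 39 in the 751 Cd3g-rich members. Klrd1, the CD94 receptor, was lower, with -0.97 ± 0.19 (adjusted p = 0.0171), but this did not pass without saline 2 (adjusted p = 0.204) or without PFF 1 (adjusted p = 0.144). Cd226, an activating receptor, was lower with -1.39 ± 0.17 (adjusted p = 0.00358). Of 25 ILC1 genes, 9 were higher and 10 lower, with a median of -0.42. Ikzf2 fell by 2.42 ± 0.24 (adjusted p = 0.00232) and Cxcr6 fell by 1.74 ± 0.13 (adjusted p = 0.00203).

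Of 26 innate intraepithelial genes, 1 was higher, Ly6e, and 12 were lower, with a median of -0.74. Ly6e, a GPI-anchored surface protein, rose by 0.92 ± 0.16 (adjusted p = 0.0113), a call lost without PFF 1 (adjusted p = 0.176). Cd8a fell by 2.24 ± 0.19 (adjusted p = 0.00229) and Cd101 fell by 2.20 ± 0.17 (adjusted p = 0.00203). Itgae did not pass, with -0.61 ± 0.18 (adjusted p = 0.0677), nor did Cd7, with -0.40 ± 0.19 (adjusted p = 0.206). Without saline 1 both passed as lower (adjusted p = 0.00176 for Itgae and 0.00804 for Cd7). In the Cd3g-rich members alone Itgae, which served to choose the class, differed by 0.02 and Cd7 by 0.32 on the log2 scale.

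Of the 9 T cell receptor and CD3 genes outside the rule, 7 were lower and none higher, with a median of -2.76. The log2 difference was -6.03 for Tcrg-C1, -4.98 for Tcrg-C2, -3.71 for Cd247, -3.44 for Trdc, -2.76 for Trac and -2.45 for Trbc2 (adjusted p from edgeR of 0.00809 or less for each). Tcrg-C4 fell by 0.60 ± 0.16 (adjusted p = 0.0434), a call lost without saline 2 (adjusted p = 0.517) or without PFF 1 (adjusted p = 0.397). Cd3g had -0.58 ± 0.19 (adjusted p = 0.0906) and Trbc1 -0.67 ± 0.19 (adjusted p = 0.0525), and neither passed, though both passed as lower without saline 1 (adjusted p = 0.00215 and 0.00282). In the Cd3g-rich members alone the log2 difference was 0.17 for Cd3g, 0.02 for Trbc1 and 0.18 for Tcrg-C4. Cd3g served to choose this class, so its value there is a description.

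T lineage genes were mostly lower, 13 of 23 tested with 2 higher. Themis, which tunes T cell receptor signalling in thymocytes, fell by 4.42 ± 0.57 (adjusted p = 0.00376), from 280, 191 and 278 CPM in the comparison cells to 77.2, 4.93 and 7.51 CPM in the members of saline 1, saline 2 and PFF 1. Camk4, a calcium-dependent kinase, fell by 3.61 ± 0.35 (adjusted p = 0.00229). Of 22 ITAM adapter and kinase genes, 8 were lower and 2 higher. The lower ones included Lat, a scaffold of T cell receptor signalling, at 19.8, 24.4 and 14.5 CPM in the Cd3g-rich members against 72.5, 56.9 and 64.5 CPM, and Hcst, the DAP10 adapter, at 114, 130 and 138 CPM against 456, 333 and 324 CPM. Plcg2, a phospholipase downstream of Syk, did not pass in the test over all members. In the Cd3g-rich members alone it stood at 342, 399 and 453 CPM, against 219, 231 and 295 CPM in the comparison cells.

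Among cytotoxic granule genes 2 of 16 were higher and 4 lower, among transcription factors 6 of 27 higher and 9 lower, and among checkpoint and costimulatory receptors 3 of 20 higher and 10 lower, where 14.2% of all genes were higher and 5.92% lower. Maf, a transcription factor, stood at 69.4, 87.2 and 53.2 CPM in the Cd3g-rich members against 14.6, 28.1 and 14.99 CPM, and was among the higher genes. Tnfrsf9, the costimulatory receptor 4-1BB, was among the lower, at 19.8, 34.6 and 27.4 CPM in the Cd3g-rich members against 107, 140 and 110 CPM. Ccl5, an abundant chemokine of cytotoxic cells, did not pass.

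Lists of other cell types moved with the same comparison. All 11 dendritic cell genes tested were higher in the members, as were 6 of 7 macrophage genes and 7 of 12 enterocyte genes, with none lower. The enterocyte list summed to 168 CPM in saline 1, 8959 in saline 2 and 2650 in PFF 1 over all members, and to 178, 349 and 215 CPM over the Cd3g-rich members, against 399, 1228 and 312 CPM in the comparison cells. The dendritic cell list summed to 976, 8594 and 6140 CPM over all members and to 575, 609 and 684 CPM over the Cd3g-rich members, against 423, 355 and 371 CPM. Of 18 dissociation and immediate early genes, 12 were higher and none lower, and the list summed to 1652, 2457 and 2514 CPM in the members, 1669, 1876 and 1777 CPM in the Cd3g-rich members and 1368, 1797 and 1804 CPM in the comparison cells. The part of digestion stress in the other differences was not tested.

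Several genes outside the lists set the Cd3g-rich members apart in every source, and were chosen after their values were seen, by their smallest log2 ratio over saline 1, saline 2, PFF 1 and the shared wells. Abi3bp, which encodes an extracellular matrix-binding protein, stood at 84.2, 106, 98.4 and 80.7 CPM in these 4 sources, against 0.623, 1.06, 0.836 and 0.943 CPM in the comparison cells. Htra1, a secreted serine protease, stood at 84.2, 95.5, 73.5 and 70.5 CPM against 0.693, 5.58, 2.72 and 1.91 CPM. Hdac9, a histone deacetylase, stood at 218, 175, 249 and 391 CPM against 21.0, 12.9, 13.5 and 44.6 CPM. Pecam1, the adhesion molecule CD31, stood at 386, 255, 255 and 333 CPM against 29.7, 39.9, 36.6 and 50.4 CPM. The choice itself fixed that the sources of both groups lie apart. The edgeR test over all members used these same cells and the same comparison cells, so its values for these genes add no support. In it Abi3bp rose by 5.99 ± 0.30 (adjusted p = 0.000869), Htra1 by 4.01 ± 0.58 (adjusted p = 0.0051), Hdac9 by 3.87 ± 0.22 (adjusted p = 0.00103) and Pecam1 by 2.65 ± 0.29 (adjusted p = 0.00265).

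At the other end, Camk4 stood at 59.4, 26.3, 54.8 and 52.9 CPM in the Cd3g-rich members against 324, 310, 335 and 280 CPM, and Farp1, a guanine nucleotide exchange factor, at 9.91, 1.28, 7.06 and 4.07 CPM against 63.2, 70.2, 81.7 and 99.0 CPM. Crtam, an adhesion receptor of activated T and natural killer cells, stood at 9.91, 5.77, 8.72 and 2.71 CPM against 40.0, 39.6, 38.5 and 51.2 CPM. Capn3, a calpain protease, stood at 29.7, 44.2, 35.3 and 16.3 CPM against 114, 153, 134 and 143 CPM. By the rule for all members, which took the 12 highest and 12 lowest called genes, Cd33, Mpeg1 and Ly6d were also named as higher, and the other-lineage cells held them: Mpeg1 stood at 0, 0 and 0.831 CPM in the Cd3g-rich members and at 22.7, 90.6 and 169 CPM over all members.

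**Figure D4:**
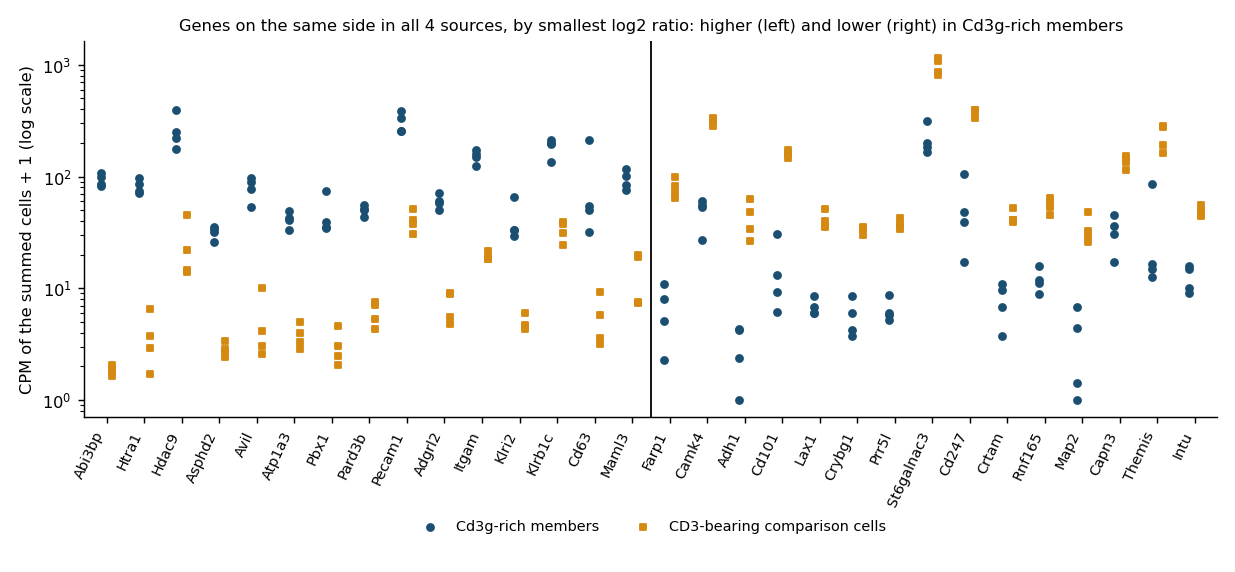
The 15 genes that were higher and the 15 that were lower in Cd3g-rich members than in CD3-bearing cells in all of saline 1, saline 2, the shared saline wells and PFF 1, ordered by their smallest log2 ratio, as CPM of the summed cells plus 1 on a log axis with 1 point per source. Abi3bp, at the left end, lies between 80.7 and 106 CPM in Cd3g-rich members and at 1.06 CPM or less in comparison cells.

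The share of cells that met the rule differed more between the saline libraries than between treatments. It was 1.12% in saline 1 (61 of 5459 cells, exact binomial 95% interval 0.856 to 1.43%), 5.08% in saline 2 (220 of 4332, 4.44 to 5.77%) and 3.04% in PFF 1 (373 of 12263, 2.74 to 3.36%). In the shared wells it was 5.54%, 3.23% and 3.52%. PFF 1 thus lay between the saline libraries, 0.056 percentage points under their mean of 3.10%, with an SD of 2.80 points between them. No permutation p under 0.33 can be had from 1 library against 2, so none is given. The intervals cover counting error only. Thinned to 2000 UMIs, the shares were 1.44%, 5.19% and 3.65%, and thinned to 1000 UMIs they were 4.199%, 7.58% and 7.19%, so the rule took in more cells as depth fell.

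The classes followed the libraries in different ways. The Cd3g-rich class made up 1.06% of the cells in saline 1, 3.69% in saline 2, 2.08% in PFF 1 and 2.48% in the shared wells. The Ncr1-rich class made up 0.0366% (0.0044 to 0.132%), 0.0462% (0.0056 to 0.167%), 0.122% (0.0685 to 0.202%) and 0.232% (0.151 to 0.339%). PFF 1 lay between the saline libraries for the first class and above saline 1 and saline 2 for the second. The Ncr1-rich cells of the shared wells were 0 of 993 in well 1, 0 of 1734 in well 2 and 0.306% in well 3, so PFF 1 lay below only the last. Batch 1 holds saline 1 and PFF 1 only, and within it the share was 1.12% against 3.04%, with 1 library each. Saline 2 is the only library of its batch, so batch and library cannot be told apart there, and the mix of sorted and bead-enriched cells per library is not given.

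Between PFF 1 and the saline libraries, 2 of 13078 genes passed edgeR's test in the members, which is 0.0153%, and 166 had an unadjusted p under 0.05. Only 1 residual degree of freedom remained, so the lone PFF library takes its spread from the saline pair. Both genes came from very few cells. Sst, the hormone somatostatin of enteroendocrine cells, had 6579 UMIs in 2 cells of PFF 1, 63.6% of them in 1 cell, and none in the saline libraries (log2 difference 14.94 ± 1.39, adjusted p = 0.0151). Defa24, a Paneth cell defensin, had 796 UMIs in PFF 1, 97.2% of them in 1 cell, 1 UMI in saline 2 and none in saline 1 (9.11 ± 1.01, adjusted p = 0.017). Neither gene passed once the shared wells were added as another library (adjusted p = 1 for Sst and 0.374 for Defa24).

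No gene of the natural killer, ILC1 and innate intraepithelial lists passed between PFF and saline, a count of 0 in each list by edgeR and by DESeq2. At an unadjusted p under 0.05 there were 2 natural killer genes, 2 ILC1 genes and 0 innate intraepithelial genes. The median log2 difference was 0.02 for 24 natural killer genes, -0.13 for 25 ILC1 genes and -0.18 for 26 innate intraepithelial genes, against -0.0038 over all genes. In the Cd3g-rich members the treated library lay between saline 1 and saline 2 for Cd3g, Klrb1c, Cd160 and Cd8a, given above or, for Cd160, at 129, 208 and 163 CPM. It lay outside the range for Xcl1, at 104 CPM in saline 1, 183 in saline 2 and 60.6 in PFF 1, with 86.1 in the shared wells. The top cell held 25.7%, 13.9% and 24.1% of the Xcl1 UMIs of all members in saline 1, saline 2 and PFF 1. Of saline 1, saline 2 and PFF 1, the last was also lowest for Il12rb2, Prf1, Il2rb and the rule's Gzmb. It was highest for Tnfsf10 and Itgae, and lay between for others such as Itga1, Cd7 and Ikzf2, at the values given above. With 3 libraries such an order is a description of these libraries.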

How the data were processed

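The deposited files hold whole-number UMI counts for each barcode and gene, which the authors made with Cell Ranger 7.0.0, per the file headers, against mm10, per the submitters' processing notes. No normalization was applied to these counts by the authors. Wells 1 to 3 of both saline files were identical and were counted once. Cells were filtered and picked by the rule given in the report, and counts were summed per library. The members and the 26 gene lists were chosen with earlier results of these data known.

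Members and CD3-bearing cells were compared with edgeR 4.0.16 (R 4.3.3, TMM scaling, quasi-likelihood test, low-count filter), with the library as a block, since both sums come from the same library, and with Benjamini-Hochberg adjustment. PFF and saline sums were compared without a block. Genes in the text are the 12 highest and 12 lowest called genes of at least 20 CPM, 6 each for PFF, beside list genes, and others named as chosen after their values were seen. Members were clustered with scanpy 1.11.5. DESeq2 1.42.0, other scaling, filters, cell sets and left-out libraries were alternatives. Data with known changes were simulated with the same spread for every gene and no mix of classes. On them the test of members recovered 32% of 2-fold, 84% of 4-fold and 94% of 16-fold changes over 13052 genes, with 10 false calls. The test of PFF recovered 16% of 2-fold and 80% of 4-fold changes over 13019 genes, with 5 false calls. Many differences near 2-fold are thus missed, and recovery in the real cells, with their mix of classes, was not measured. The doublet caller marked at most 0.577% of a well, under 0.5% in 5 of 6 wells, so its calls were not used, and leaving out the highest scores was an alternative. Promoter sequences are RefSeq's.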

Additional observations from a re-analysis of the deposited data

How the results depend on the processing

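The count of genes that differed between members and CD3-bearing cells was 2640. It was 1464 in Cd3g-rich members alone, 1425 in Cd3g-rich and Ncr1-rich members, 676 against CD3-bearing cells without adapters, 1548 with each well as a library, 6208 with the files as deposited, 4197 without a low-count filter and 751 after thinning; the cause was not tested. Leaving out 1 library gave 1195 to 5844. Without the replicate block, here the library, the count was 2144. For PFF against saline the count of 2 became 5 with DESeq2, 18 in Cd3g-rich and Ncr1-rich members (4 higher and 14 lower, where the 2 calls over all members were higher), 19 in Cd3g-rich members (2 higher and 17 lower), 4 at 10% mitochondrial UMIs, 30 with a gate of 4 UMIs, 15 without a filter and 8 after thinning. It was 0 with RLE scaling, without shared barcodes, with each well as a library, with files as deposited, in members without Cd3g or T cell receptor UMIs, with the shared wells as a library and without the highest doublet scores. No paired analysis was possible because PFF has 1 library and its only shared number is that of saline 1. Without either saline library no residual degrees of freedom remain. The difference in share, -0.056 points, was -2.037 without saline 1 and 1.924 without saline 2.

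Direction turned for 11 genes. Cd3g and Itgae served to choose the Cd3g-rich class, so their turn there follows in part from the choice. In Cd3g-rich members the log2 difference was 0.004 for Nkg7, -0.728 for Il7r, 0.022 for Itgae, 0.319 for Cd7, 0.173 for Cd3g, 0.021 for Trbc1, 0.176 for Tcrg-C4 and -2.387 for Mpeg1. In Cd3g-rich and Ncr1-rich members it was 0.002 for Nkg7, 0.265 for Cd7, 0.107 for Cd3g, 0.029 for Trbc1, 0.142 for Tcrg-C4 and -2.462 for Mpeg1. Against cells without adapters it was 0.193 for Klrd1, -2.212 for Il7r and 1.822 for Cd7. In members without Cd3g or T cell receptor UMIs it was -12.74 for Klrb1c and -1.546 for Htra1. Cd7 was 0.025 with the gate of 4 UMIs, and after thinning Cd7 was 0.118, Cd3g 0.018 and Tcrg-C4 0.044. Of 808 values for 40 genes under alternatives, 706 kept direction and side of the threshold. Members were shallow in saline 1, shared well 1 and shared well 2, with medians of 3359, 3465 and 4040 UMIs, and the Ncr1-rich cells were few.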
